A study of Mus musculus with 19 samples.

Results

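Contacts that cross the chromatin border beside the mouse Shh gene were followed in 9 Capture Hi-C maps. The pairs join 10 kb bins of the 500 kb just below the border (chromosome 5, 28260001 to 28760000, mm9) with 10 kb bins of the domain above Shh (28800001 to 29700000). The 50 lower and 90 upper bins give 4500 pairs out of the 39340 possible pairs of the 280 bins mapped. The bin of the border itself (28760001 to 28770000) and the bin above it lay outside both stretches, and the 2 bins of the Shh promoter (28780001 to 28800000) were left out. The pairs were chosen by position, and were averaged in 45 tiles of 100 kb by 100 kb, 5 along the lower stretch and 9 along the domain. Positions are given below as the distance of a bin from the main promoter bin, in kb.

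The series holds 19 samples in 9 groups, and the deposited files give 1 merged contact map per group. The mutant groups were limb buds with the genotypes deltaCTCF i4i5, deltaCTCF i4i5ZRS, deltaCTCF i4i5ZRSreg, deltaZRSreg and Lmbr1deltaprom/deltaprom, and midbrain with deltaCTCF i4i5ZRS. Each of these had 2 samples at E10.5, made by CRISPR-Cas9 in the G4 strain. They are called i4i5, i4i5ZRS, i4i5ZRSreg, ZRSreg and Lmbr1 promoter maps here. The wild type groups were midbrain at E10.5 with 2 samples (C57BL/6), embryonic stem (ES) cells with 2 samples (G4) and limb buds at E10.5 with 3 samples (C57BL/6). The name of the ES cell map and the title of 1 of its samples carry different library suffixes, so which libraries it merges is not certain. The labels name a CTCF deletion, a ZRSreg deletion and a promoter deletion, and give no coordinates for any of them. All mutants are G4 and both wild type tissues are C57BL/6, so strain and genotype cannot be told apart within these comparisons. Tissues were taken as a whole, so a map averages over all cell types of the limb bud or midbrain, and a contact map holds no marker gene by which the tissue could be checked.

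Shh encodes a secreted signal that patterns the limb bud and the neural tube. In the limb bud it is driven by the ZRS, an enhancer at the far end of the domain within an intron of Lmbr1. CTCF is a DNA-binding protein at which cohesin, the complex that extrudes chromatin loops, comes to rest. Bound CTCF sites often mark borders between contact domains, and pairs across such a border usually meet less often than pairs inside a domain. In the GRCm38.p6 RefSeq gene table, used for gene order only, the genes met going downward from Shh are Rbm33, Cnpy1, En2, Insig1, Htr5a and Paxip1. En2 is a homeobox gene of the midbrain and hindbrain, and Insig1 encodes a membrane protein that holds back sterol synthesis. Going upward from Shh the order is Rnf32, Lmbr1, Nom1 and Mnx1.

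Merging before deposit left 1 map per group, so replicates cannot be compared and no difference below was tested. Intervals in parentheses are 95% intervals from the recovered contact counts and cover counting error only. The maps held 1177173 contacts in i4i5 limb, the shallowest, and between 1983686 and 3218492 in the others. Pairs across the border carried 61309 contacts in i4i5 limb and between 77097 and 140731 in the others, which was 3.51% to 5.21% of each map. A median pair held 12 to 27 contacts, and 4 to 51 of the 4500 pairs were at 0. A level is the balanced signal of a pair divided by that map's mean for pairs equally far apart, so 1 is the average for a separation. The pairs span separations of 50 to 1430 kb.

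With the mean as the expected value, contacts across the border were on average slightly below the level of their separation in each of the 9 maps. With the median in its place the levels were 0.906 to 1.201, and 5 maps exceeded 1. The mean level was 0.868 (0.859 to 0.878) in i4i5 limb, 0.860 (0.852 to 0.867) in i4i5ZRS limb and 0.853 (0.847 to 0.859) in i4i5ZRSreg limb. It was 0.978 (0.971 to 0.985) in ZRSreg limb and 0.940 (0.934 to 0.947) in Lmbr1 promoter limb. In midbrain it was 0.776 (0.769 to 0.783) with i4i5ZRS and 0.905 (0.897 to 0.913) in wild type. ES cells had 0.979 (0.972 to 0.987) and wild type limb had 0.962 (0.956 to 0.969). The 4 maps with a CTCF deletion therefore held the 4 lowest means. With the median, with expected values from pairs outside the rectangle and without balancing they held the lowest levels too. With summed signal over summed expected values they did not, since i4i5 and i4i5ZRSreg limb lay above ES cells and wild type midbrain. The mean hides a wide range, since 60.4% of pairs in ES cells to 77.1% in i4i5ZRS midbrain were below 1.

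The tiles showed a gradient along the domain in all 9 maps. In wild type limb the mean of the 5 tiles was 0.603 in the column nearest Shh (10 to 100 kb), 0.582 at 110 to 200 kb, 0.838 at 410 to 500 kb, 1.08 at 610 to 700 kb and 1.85 in the uppermost column (810 to 900 kb), which lies beside the upper border. Contacts with the 200 kb above Shh were thus low for their separation, and contacts with the far end of the domain exceeded it. Levels above 1 continued past the domain. The same lower stretch had 1.29 with the flank above the upper border in wild type limb. Over the 9 maps this level ran from 1.23 in i4i5ZRS limb to 1.31 in i4i5ZRSreg limb. Between 9 tiles (i4i5ZRS midbrain) and 20 tiles (ES cells) of the 45 reached a level of 1 or more, against 16 in wild type limb. The order of the 45 tiles was similar across maps, with Spearman's rho of 0.774 to 0.989 over the 36 pairs of maps, given as a description of tiles that share the same expected values.

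**Figure D1:**
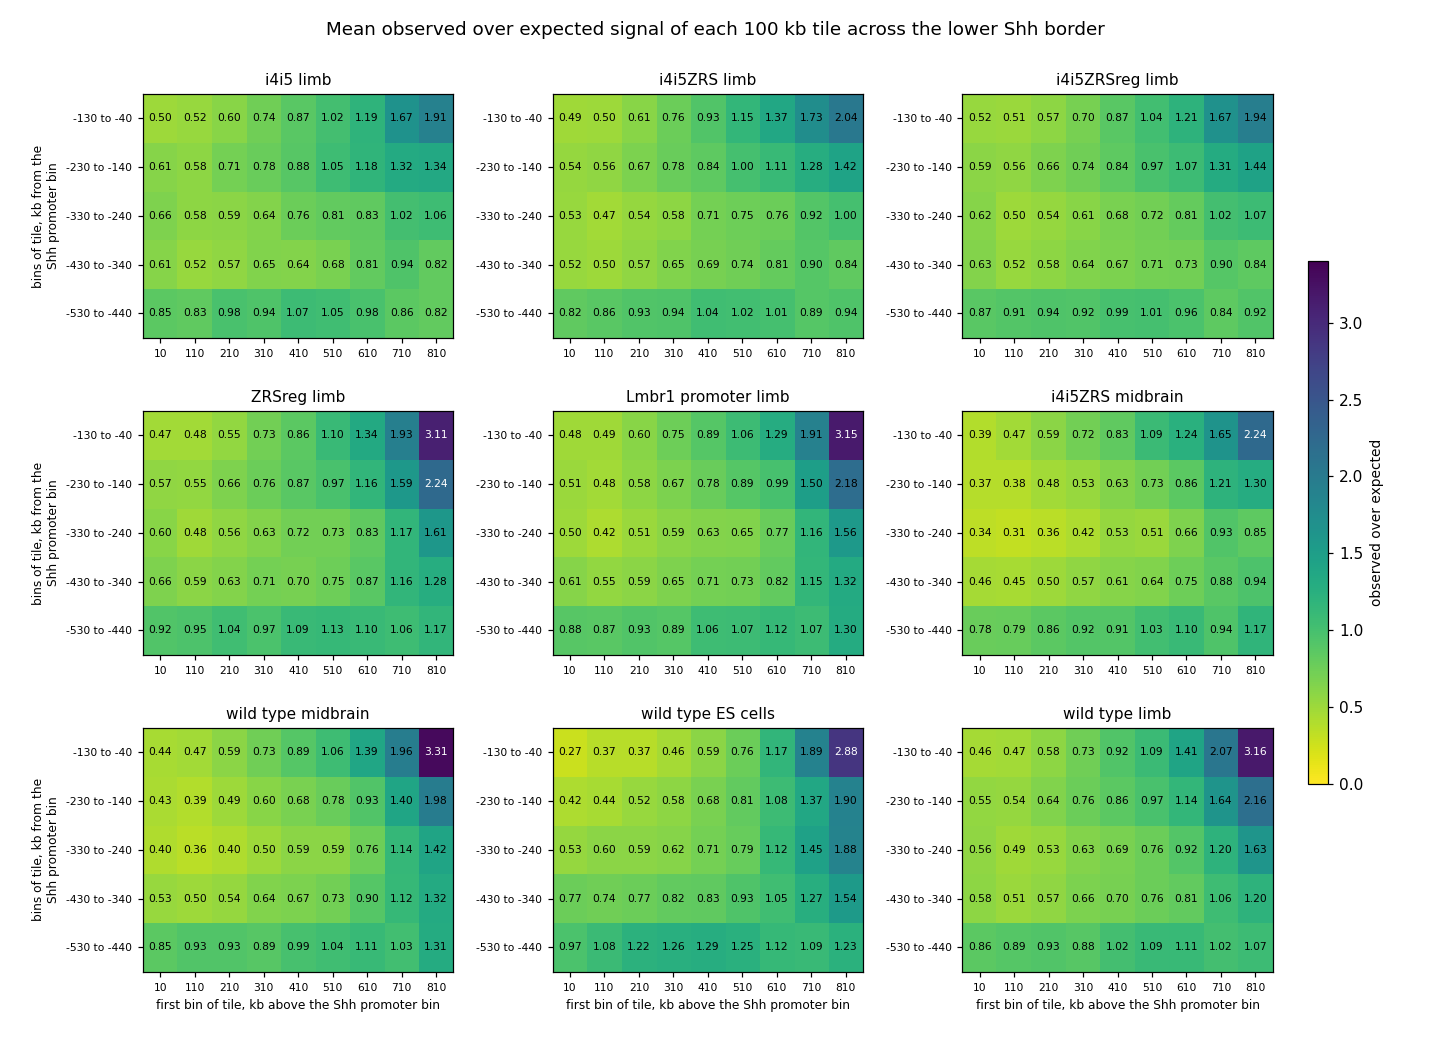
Mean level (signal over the mean at the same separation) in the 45 tiles of each of the 9 merged maps. The horizontal axis is the distance of the domain column above the Shh promoter bin and the vertical axis the distance of the lower row below it, both in kb. The tile joining the row beside the border with the uppermost column is the highest in every map, at 1.91 in i4i5 limb and 3.16 in wild type limb.

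The highest tile was the same in all 9 maps and joined the stretch just below the border with the far end of the domain. It pairs the 100 kb just below the border (28660001 to 28760000, 130 to 40 kb below the promoter bin) with the uppermost column (29600001 to 29700000), which holds the 5-bin window at 830 to 870 kb where the ZRS is placed from general knowledge. Its level was 1.91 (1.81 to 2.01, 1915 contacts) in i4i5 limb, 2.04 (1.96 to 2.12, 2779 contacts) in i4i5ZRS limb and 1.94 (1.88 to 2.01, 3933 contacts) in i4i5ZRSreg limb. It was 3.11 in ZRSreg limb and 3.15 in Lmbr1 promoter limb. The midbrain maps had 2.24 with i4i5ZRS and 3.31 in wild type, ES cells had 2.88 and wild type limb had 3.16 (3.09 to 3.25, 7248 contacts). The 4 maps with a CTCF deletion lay between 1.91 and 2.24 and the other 5 between 2.88 and 3.31. The tile was named as the highest, and how many other tiles separate these sets of maps was not counted. The lowest tile lay close to the border in i4i5, ZRSreg and wild type limb and in ES cells, where it joined the row beside the border with the column nearest Shh. That tile had 0.504 in i4i5 limb, 0.467 in ZRSreg limb, 0.266 in ES cells and 0.463 in wild type limb. In the other 5 maps the lowest tile joined the row at 330 to 240 kb below with the column at 110 to 200 kb, with levels from 0.313 in i4i5ZRS midbrain to 0.499 in i4i5ZRSreg limb.

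At the finer scale of a mean over 5 by 5 bins, the strongest pair always used the bin 60 kb below the promoter bin (28730001 to 28740000). Its partner was the bin at 850 kb (29640001 to 29650000) in ZRSreg limb (3.98), Lmbr1 promoter limb (3.96), wild type midbrain (4.30) and wild type limb (4.02). In ES cells the partner was the bin at 860 kb (3.71). In the CTCF deletion maps the level of the strongest pair was lower, with 2.27 at 830 kb in i4i5 limb, 2.48 at 820 kb in i4i5ZRS limb, 2.34 at 810 kb in i4i5ZRSreg limb and 2.79 at 840 kb in i4i5ZRS midbrain. The position of the partner was not resolved in the limb maps among these, since the intervals of the second strongest pairs overlap those of the first. The second strongest pairs lay at 880 kb in i4i5 limb (2.00, 1.79 to 2.23), at 870 kb in i4i5ZRS limb (2.34, 2.17 to 2.53) and at 860 kb in i4i5ZRSreg limb (2.24, 2.09 to 2.39).

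Single bins showed where along each side the contacts lay. On the lower side the bin next to the border, 40 kb below the promoter bin, was the highest of the 50 in all 9 maps, with a mean level to the whole domain of 1.35 in i4i5 limb, 1.60 in i4i5ZRS midbrain, 1.79 in wild type midbrain and 1.75 in wild type limb. The bin 300 kb below (28490001 to 28500000) was the lowest of the 50 in 8 maps, between 0.455 in i4i5ZRS midbrain and 0.658 in ZRSreg limb, with 0.646 in wild type limb. In ES cells the lowest was the bin at 140 kb below, at 0.623, while the bin at 300 kb below stood at 0.826. On the upper side the bin at 870 kb (29660001 to 29670000) was the highest of the 90 in each map without a CTCF deletion. It had 2.15 (2.02 to 2.28) in ZRSreg limb, 2.27 (2.15 to 2.40) in Lmbr1 promoter limb, 2.17 (2.03 to 2.33) in wild type midbrain, 2.21 (2.06 to 2.37) in ES cells and 2.12 (2.00 to 2.25) in wild type limb. The same bin had 1.29 (1.14 to 1.47) in i4i5 limb, 1.27 (1.16 to 1.40) in i4i5ZRS limb, 1.304 (1.21 to 1.41) in i4i5ZRSreg limb and 1.31 (1.196 to 1.44) in i4i5ZRS midbrain. The bin was picked as the highest in the maps without a CTCF deletion, so the gap between the sets of maps there is no test.

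The stretches were bounded by position, and the levels did not break at every edge. In wild type limb the last bin inside the lower end (530 kb below) had 0.998 and the first outside (540 kb below) had 1.08. At the border the last lower bin inside had 1.75 and the border bin outside, 30 kb below, had 2.16. The first domain bin (10 kb) had 0.659, against 0.784 for the promoter bin left out, and at the upper end the bin at 900 kb had 1.79, against 1.67 for the bin at 910 kb. At that upper end i4i5 limb had 1.18 inside and 1.36 outside.

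As many pairs across the upper border, the mirror image of the rectangle (the domain against 29740001 to 30240000), were used to see whether one side of the domain was more separated. The mean level across the lower border was well above that across the upper one in the 5 maps without a CTCF deletion. In wild type limb the mean level was 0.962 across the lower border and 0.675 across the upper, a log2 ratio of 0.51, and 35 of 45 tiles were higher at the lower border. ES cells had the largest difference of these maps, with 0.979 and 0.521 (log2 ratio 0.91, 39 tiles). ZRSreg limb (0.61, 36 tiles), Lmbr1 promoter limb (0.47, 35 tiles) and wild type midbrain (0.39, 31 tiles) lay on the same side. The limb maps with a CTCF deletion had nearly equal levels on both sides, with log2 ratios of 0.03 (0.00 to 0.05) in i4i5, 0.07 in i4i5ZRS and 0.06 in i4i5ZRSreg, and 21, 28 and 25 of 45 tiles higher at the lower border. Across the upper border these maps had 0.853, 0.821 and 0.818, above the 0.675 of wild type limb (log2 ratios 0.34, 0.28 and 0.28). Across the lower border the log2 ratios to wild type limb were -0.15, -0.16 and -0.17. Both rectangles share separations and so enter the same expected values, and the part of this in the lower levels was not tested. In i4i5ZRS midbrain the lower border held less, with 0.776 against 0.853 at the upper and a log2 ratio of -0.14 (-0.15 to -0.12), and 16 tiles were higher there.

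**Figure D2:**
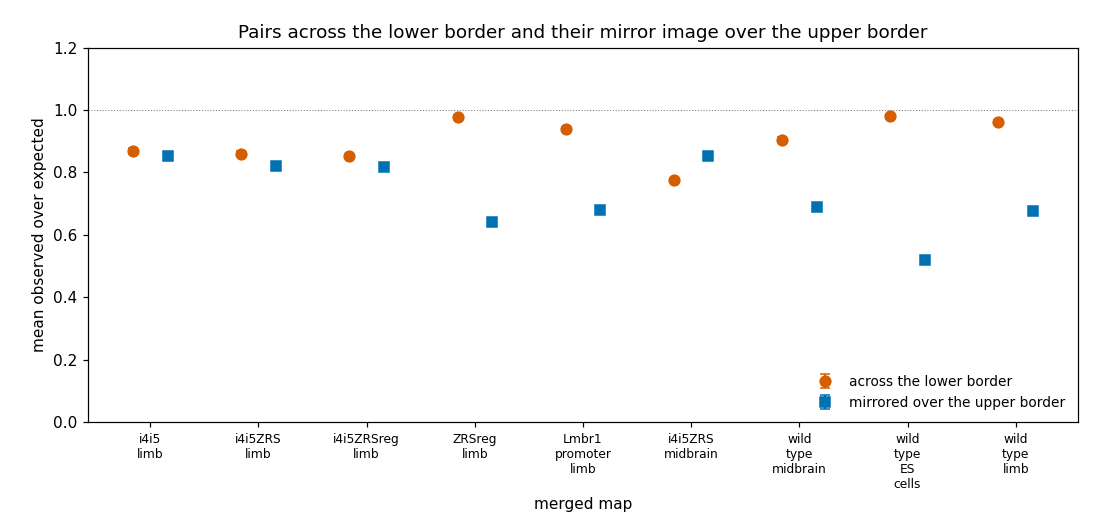
Mean level of the 4500 pairs across the lower border and of the 4500 mirrored pairs across the upper border in each merged map. Error bars are 95% intervals of counting error. Both levels nearly meet in the 3 limb maps with a CTCF deletion, and the lower border is the higher by a wide margin in ES cells (0.979 against 0.521).

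In the limb maps with a CTCF deletion, contacts across the lower border were lower mainly where the far end of the domain took part. Over all 4500 pairs the level changed relative to wild type limb by -9.80% in i4i5 (log2 ratio -0.15, -0.17 to -0.13), -10.6% in i4i5ZRS (-0.16, -0.18 to -0.15) and -11.4% in i4i5ZRSreg (-0.17, -0.19 to -0.16). In the uppermost column the level was 1.19 in i4i5, 1.25 in i4i5ZRS and 1.24 in i4i5ZRSreg limb, against 1.85 in wild type limb. These are log2 ratios of -0.63 (-0.68 to -0.58), -0.57 (-0.61 to -0.52) and -0.57 (-0.60 to -0.53). Without that column the rectangle stood at -0.04 (-0.06 to -0.02), -0.07 (-0.09 to -0.05) and -0.08 (-0.10 to -0.07). A fall was not particular to pairs across the border. Pairs within the domain, 50 kb or more apart, stood at -0.15 (-0.16 to -0.14), -0.08 (-0.09 to -0.07) and -0.10 (-0.11 to -0.09). Pairs within the 500 kb below the border stood at 0.01, 0.06 and 0.03. All 3 comparisons share the wild type limb map, so they are not independent of each other.

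Tiles that differed by at least 1.3-fold were counted beside all 351 tiles of the same size in the map whose facing edges lay at least 50 kb apart. The 351 include the 45. In i4i5 limb 5 of the 45 tiles (11.1%) were lower than in wild type limb by that fold, against 2.85% of all tiles, and none was higher, against 9.12% of all tiles. In i4i5ZRS limb 5 tiles (11.1%) were lower, against 2.28% of all tiles, and none was higher, against 4.56%. In i4i5ZRSreg limb 4 tiles (8.89%) were lower, against 1.71%, and none was higher, against 4.56%. The shares of lower tiles stood above the background in each, and they came from few tiles in 1 place. All 5 in i4i5 limb, 4 of 5 in i4i5ZRS limb and all 4 in i4i5ZRSreg limb were in the uppermost column, and the remaining one joined the row at 330 to 240 kb below with the column at 710 to 800 kb in i4i5ZRS limb (-0.38). The median tile stood at 0.00, -0.04 and -0.05 in the order above, against 0.03, 0.01 and 0.01 over all 351 tiles.

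**Figure D3:**
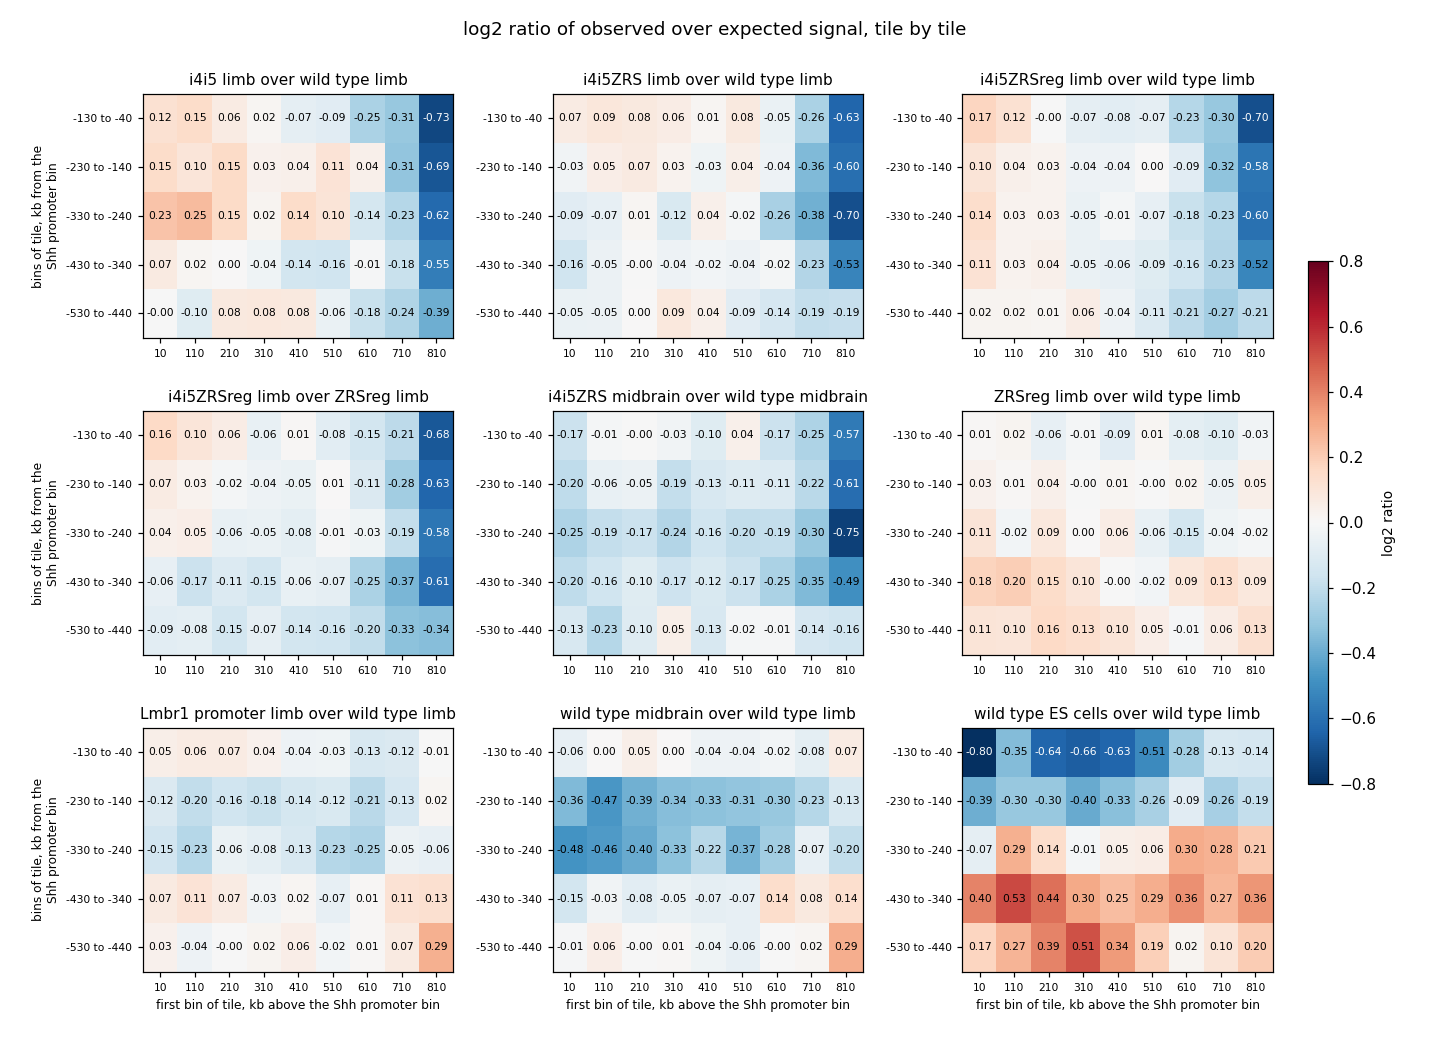
Log2 ratio of the level in each of the 45 tiles for 9 of the comparisons, laid out as in the heat maps of levels. By its mean, the uppermost column is the lowest of the 9 in the panels that set a CTCF deletion map beside a map without one, with -0.73 in the tile beside the border for i4i5 over wild type limb.

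Within the uppermost column the fall depended on the row. In i4i5 limb the log2 ratios were -0.73 in the row beside the border, then -0.69, -0.62 and -0.55, and -0.39 in the row farthest from it (530 to 440 kb below). In i4i5ZRS limb the row beside the border had -0.63, the third row -0.70 and the farthest -0.19. In i4i5ZRSreg limb they had -0.70, -0.60 and -0.21. The farthest row was thus the least changed in each. The column beside it (710 to 800 kb) was lower by less, at -0.26, -0.29 and -0.28. In the column nearest Shh the log2 ratios were 0.10 (0.05 to 0.16) in i4i5, -0.06 (-0.11 to -0.01) in i4i5ZRS and 0.10 (0.06 to 0.15) in i4i5ZRSreg, so the direction there was not shared by the 3 alleles. At single-pair scale the largest fall in i4i5 limb over 5 by 5 bins was between 60 kb below and 860 kb above, with 2.07 from 496 contacts in i4i5 limb, against 3.96 from 2137 contacts in wild type limb (-0.93, -1.09 to -0.77).

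The uppermost bins also met other partners less in the CTCF deletion maps, by different amounts. Their level with the 2 promoter bins was 3.09 in i4i5, 3.77 in i4i5ZRS and 3.36 in i4i5ZRSreg limb, against 5.95 in wild type limb, or log2 ratios of -0.94, -0.66 and -0.82. These are lower than the ratios of the same bins with the 500 kb below the border. With the interior of the domain they stood at -0.25, -0.18 and -0.15, and with the bins below the 500 kb stretch at -0.35, -0.16 and -0.18. With the flank above the upper border the same bins were higher, at 0.21, 0.14 and 0.13. The ZRS window alone gave -0.68, -0.59 and -0.63 with the 500 kb below, with levels of 1.22, 1.29 and 1.26, against 1.95 in wild type limb. As a share of all contacts that crossed the border, the uppermost column held 9.39% (Wilson 95% interval 9.16 to 9.62) in i4i5, 10.1% (9.89 to 10.3) in i4i5ZRS and 10.6% (10.4 to 10.7) in i4i5ZRSreg limb, against 14.2% (14.0 to 14.3) in wild type limb. This share is not scaled by separation and did not set all CTCF deletion maps apart. ES cells had 11.5% and i4i5ZRS midbrain 11.8%, against 15.2% in wild type midbrain.

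**Figure D4:**
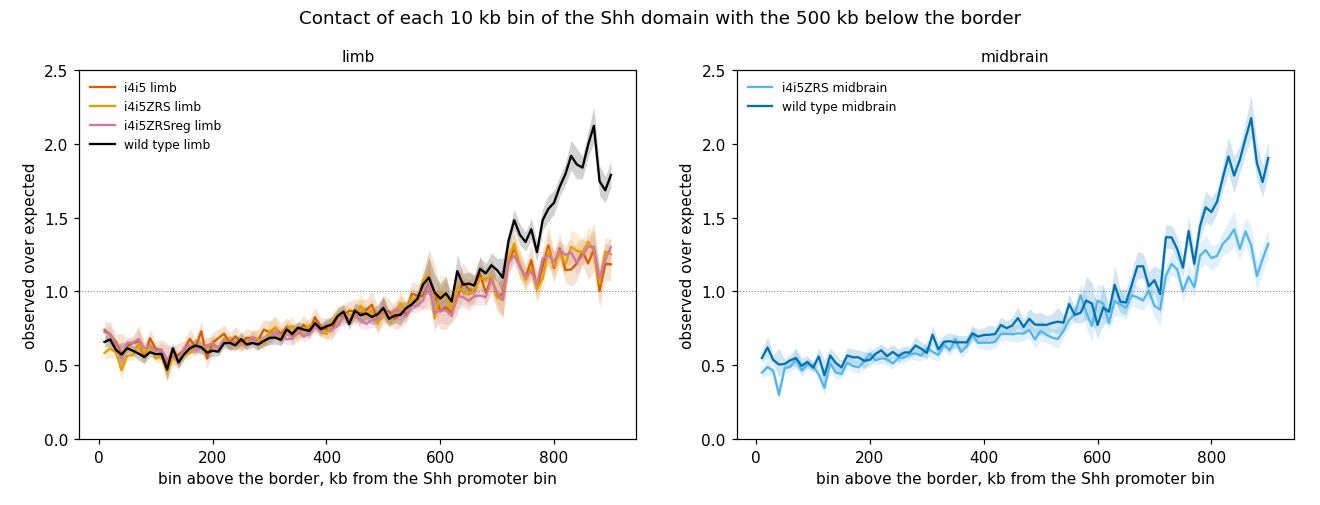
Mean level of each 10 kb domain bin with the 500 kb below the border, by distance above the promoter bin in kb, for the limb CTCF deletion maps beside wild type limb and for the midbrain pair. Shading is the 95% interval of counting error. The curves run close together up to about 600 kb in limb and part at the upper end, where the bin at 870 kb has 1.29 in i4i5 limb and 2.12 in wild type limb.

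Unbalanced coverage of the uppermost bins was lower in these maps too, least so in i4i5ZRS limb. The recovered coverage of the uppermost column over that of the other domain bins was -0.45 on the log2 scale in i4i5 limb, -0.29 in i4i5ZRS limb and -0.34 in i4i5ZRSreg limb, against -0.26 in wild type limb. The bins from 850 to 890 kb over the bins on either side gave -0.44, -0.31 and -0.36 for these alleles, against -0.22 in wild type limb. By the same measures ZRSreg limb had -0.25 and -0.29, Lmbr1 promoter limb -0.21 and -0.24, and ES cells -0.45 and -0.29. In midbrain i4i5ZRS had -0.31 and -0.27, against -0.29 and -0.20 in wild type. The part of coverage in the result was not tested. With the bins from 860 to 900 kb left out, the uppermost column still stood at -0.59 in i4i5, -0.54 in i4i5ZRS and -0.55 in i4i5ZRSreg limb. Scaling by the map total in place of the mean at each separation moved i4i5 over wild type limb to 0.07 over the rectangle, a turn in direction, and to -0.39 in the uppermost column.

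The alleles that carry a further change beside i4i5 were close to i4i5 itself in the mean of the rectangle. Over i4i5 limb, i4i5ZRS limb stood at -0.01 (-0.03 to 0.01) and i4i5ZRSreg limb at -0.03 (-0.04 to -0.01) over the rectangle. No tile of 45 passed 1.3-fold in either comparison, against 0% of all tiles in either direction. The uppermost column was a little higher than in i4i5 limb, at 0.07 (0.01 to 0.12) in i4i5ZRS and 0.06 (0.01 to 0.12) in i4i5ZRSreg limb. With the 2 promoter bins the same column stood at 0.28 (0.14 to 0.43) and 0.12 (-0.02 to 0.26). The row at 330 to 240 kb below was lower in i4i5ZRS limb, with 0.694 against 0.772 in i4i5 limb (-0.16, -0.20 to -0.11), and the row beside the border was higher, with 1.06 against 1.00 (0.08, 0.05 to 0.12). In i4i5ZRSreg limb these rows had 0.731 (-0.08, -0.12 to -0.04) and 1.00 (0.00, -0.03 to 0.03) beside the same i4i5 values. Scaled by the map total, i4i5ZRS over i4i5 limb became -0.29 with 12 tiles lower, so the near equality depends on scaling by separation.

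A comparison within the G4 strain set i4i5ZRSreg limb beside ZRSreg limb. The rectangle stood at 0.853 in i4i5ZRSreg limb, against 0.978 in ZRSreg limb (log2 ratio -0.20, -0.21 to -0.18), and the uppermost column at 1.24, against 1.88 (-0.59, -0.63 to -0.56). By 1.3-fold 4 of 45 tiles (8.89%) were lower, against 1.71% of all tiles, all 4 in the uppermost column, and none was higher, against 9.4%. Without that column the rectangle stood at -0.11, and pairs within the domain stood at -0.12 (-0.13 to -0.11). The ratio of the uppermost column was -0.59 beside ZRSreg limb and -0.57 beside wild type limb. Set beside ZRSreg or Lmbr1 promoter limb in place of wild type limb, the 3 limb CTCF alleles gave -0.12 to -0.20 over the rectangle.

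In midbrain the i4i5ZRS allele had the same kind of change, and the rest of the rectangle was lower as well. The level was 0.776 in i4i5ZRS midbrain, against 0.905 in wild type midbrain, a change of -14.3% (log2 ratio -0.22, -0.24 to -0.20). In the uppermost column the level was 1.2996 in i4i5ZRS midbrain, against 1.87 in wild type midbrain (-0.52, -0.57 to -0.48). By 1.3-fold 4 of 45 tiles (8.89%) were lower, against 2.28% of all tiles, and none was higher, against 6.55%. All 4 lay in the uppermost column, with -0.57 in the row beside the border, -0.61, -0.75 and -0.49 in the next 3 rows, and -0.16 in the farthest. The median tile stood at -0.17, against -0.01 over all 351 tiles. Pairs within the domain stood at -0.05 (-0.06 to -0.04).

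The midbrain and limb changes of i4i5ZRS were set beside each other as a difference of log2 ratios. Over the rectangle midbrain changed by -0.22 and limb by -0.16, a difference of -0.06 (-0.08 to -0.04). Outside the uppermost column the difference was -0.07 (-0.10 to -0.05), with -0.14 in midbrain and -0.07 in limb. In the uppermost column it was 0.04 (-0.02 to 0.10), with -0.52 in midbrain and -0.57 in limb, and the interval includes 0. With 1 map per group these intervals hold no variation between embryos, and a smaller or larger response of midbrain was not tested.

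The maps without ZRSreg or without the Lmbr1 promoter were close to wild type limb over the rectangle. ZRSreg limb stood at 0.02 (0.01 to 0.04) and Lmbr1 promoter limb at -0.03 (-0.05 to -0.02). No tile passed 1.3-fold in either, against 0% of all tiles in both directions. The uppermost column had 1.88 in ZRSreg limb and 1.90 in Lmbr1 promoter limb, against 1.85 in wild type limb. ZRSreg limb was a little higher in the 2 rows farthest from the border, at 0.09 (0.05 to 0.13) and 0.10 (0.07 to 0.13), and its highest tile ratio was 0.20 (430 to 340 kb below with 110 to 200 kb above). Lmbr1 promoter limb was lower in the rows at 330 to 240 kb and 230 to 140 kb below, at -0.12 (-0.15 to -0.09) and -0.11 (-0.14 to -0.09). Its highest tile ratio, 0.29 (0.17 to 0.41), joined the farthest row with the uppermost column, with 1.304 in Lmbr1 promoter limb, against 1.07 in wild type limb. Under scaling by the map total the ZRSreg rectangle turned to -0.05 and the Lmbr1 promoter rectangle moved to -0.17.

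Wild type midbrain was lower than wild type limb mostly in the middle of the lower side, while the mean of the uppermost column was close in both. Over the rectangle the level was 0.905 in midbrain, against 0.962 in limb (log2 ratio -0.09, -0.10 to -0.07). The row at 330 to 240 kb below had 0.684 in midbrain, against 0.822 in limb (-0.26, -0.30 to -0.23), and the row at 230 to 140 kb below had 0.854 in midbrain, against 1.03 in limb (-0.27, -0.30 to -0.24). The row beside the border stood at 0.00 (-0.03 to 0.02) and the 2 farthest rows at 0.01 and 0.03. The uppermost column had 1.87 in midbrain, against 1.85 in limb (0.02, -0.02 to 0.05). Its tiles differed in both directions, from 0.29 (0.16 to 0.43) in the farthest row to -0.20 (-0.28 to -0.12) in the row at 330 to 240 kb below. The lower bin with the lowest ratio was at 240 kb below, with 0.733 in midbrain, against 1.03 in limb (-0.49, -0.61 to -0.37).

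By 1.3-fold 5 of the 45 tiles (11.1%) were lower in midbrain than in limb, against 1.42% of all tiles, and none was higher, against 0.855%. These 5 were the only lower tiles among the 351. All 5 lay in those 2 rows, among the 3 columns nearest Shh, and the lowest joined 330 to 240 kb below with 10 to 100 kb above. It had 0.402 in midbrain, against 0.560 in limb (-0.48, -0.58 to -0.38). Pairs within the 500 kb below the border moved the other way, with 1.07 in midbrain, against 0.937 in limb (0.19, 0.18 to 0.21).

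In the G4 maps of i4i5ZRS these 2 rows were also the lowest when midbrain was set beside limb. The row at 330 to 240 kb below had 0.545 in midbrain, against 0.694 in limb (-0.35, -0.39 to -0.31), and the row at 230 to 140 kb below had 0.719, against 0.913 (-0.34, -0.38 to -0.31). The row beside the border (-0.05, -0.09 to -0.02) and the row at 430 to 340 kb below (-0.10, -0.14 to -0.06) were lower as well, where the wild type pair had 0.00 and 0.01, and the farthest row stood at 0.01. Here 12 of 45 tiles (26.7%) were lower by 1.3-fold, against 4.56% of all tiles, and none was higher, against 0.285%. The 351 tiles held 16 lower ones, these 12 among them. The lowest tile was again that of 330 to 240 kb below with 10 to 100 kb above, with 0.339 in midbrain, against 0.525 in limb (-0.63, -0.75 to -0.51). This comparison was added after the other values had been seen, and shares no map with the wild type pair.

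**Figure D5:**
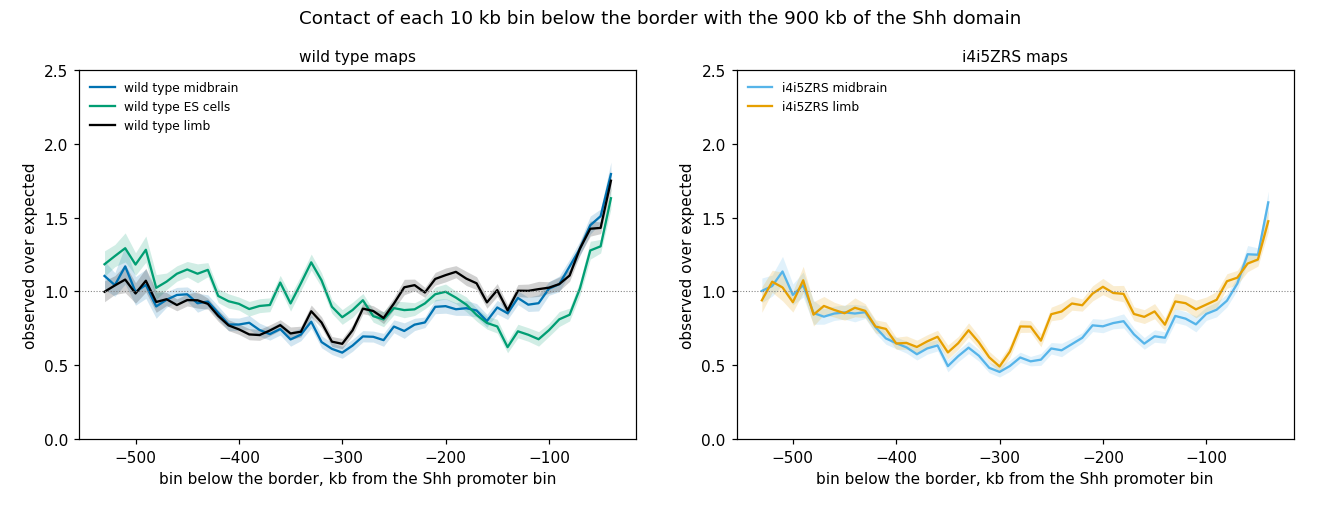
Mean level of each 10 kb lower bin with the domain, by distance below the promoter bin in kb. One panel shows wild type midbrain, ES cells and wild type limb, the other i4i5ZRS midbrain and i4i5ZRS limb, with shading for the 95% interval of counting error. The midbrain curves lie under the limb curves between about 330 and 140 kb below, and the ES cell curve lies above wild type limb at the far rows (1.05 against 0.728 at 340 kb below) and under it near the border (0.677 against 1.02 at 110 kb below).

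Relative to the separation, ES cells and wild type limb had nearly the same mean and a different layout. The mean level was 0.979 in ES cells, against 0.962 in limb (log2 ratio 0.03, 0.01 to 0.04). The 3 rows far from the border were higher in ES cells, with 1.17 against 0.985 in limb at 530 to 440 kb below (0.24, 0.20 to 0.29), 0.969 against 0.763 at 430 to 340 kb (0.35, 0.31 to 0.38) and 0.921 against 0.822 at 330 to 240 kb (0.17, 0.13 to 0.20). The 2 rows near the border were lower, with 0.866 against 1.03 at 230 to 140 kb (-0.25, -0.28 to -0.22) and 0.974 against 1.21 at 130 to 40 kb (-0.31, -0.34 to -0.28). Of the 45 tiles 5 (11.1%) were higher by 1.3-fold, against 3.7% of all tiles, and 7 (15.6%) were lower, against 15.7%. The share of lower tiles was therefore at the background of these maps.

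The tile nearest the border and Shh had the lowest ratio, with 0.266 in ES cells, against 0.463 in limb (-0.80, -0.87 to -0.72). In the same row the tiles at 210 to 300 kb and 310 to 400 kb stood at -0.64 and -0.66. The highest ratio was in the tile of 430 to 340 kb below with 110 to 200 kb above, with 0.736 in ES cells, against 0.512 in limb (0.53, 0.43 to 0.62). Along the lower side the bin at 340 kb below was the most raised, with 1.05 in ES cells, against 0.728 in limb (0.54, 0.44 to 0.63), and the bin at 110 kb below the most lowered, with 0.677, against 1.02 (-0.59, -0.71 to -0.46). The uppermost column had 1.88 in ES cells, against 1.85 in limb (0.03, -0.01 to 0.07). Across the upper border ES cells were lower, with 0.521 in ES cells, against 0.675 in limb (-0.38, -0.39 to -0.36). These results depend on scaling, since with the map total the rectangle stood at -0.44 with 26 tiles lower and 0 higher and the far rows at -0.26, -0.10 and -0.28, and with summed signal the rectangle stood at -0.16. The 2 maps also differ in strain and in culture.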

How the data were processed

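Contacts were read from 9 merged Capture Hi-C maps. Bowtie2 2.3.4.1, SAMtools, Juicer, cutadapt 1.15 and the mm9 build appear in the submitters' processing notes, without settings. The authors deposited the signal of each 10 kb bin pair after merging samples, a mapping quality filter of 30 and KR balancing, per the file names. The series design calls mutant samples technical and wild type samples biological replicates, and 2 of the 3 wild type limb titles carry 1 library number.

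Unlisted pairs were taken as 0. Levels are signal over the mean of all pairs at the same separation. Dividing out the balancing gave whole contact counts for all listed pairs within 0.01, and these gave gamma intervals for levels and delta-method intervals for log2 ratios. Tiles were called at 1.3-fold over 11 comparisons, and 1 tissue comparison was added. Count recovery and the log2 ratios of tiles were tested on simulated maps of i4i5 and wild type limb, with a fixed expected value. The intervals were not tested in this way. Named tiles, rows, bins and pairs were the highest and lowest of each set, beside the ZRS window and the uppermost column. The pairs, lists and comparisons were chosen with earlier results of these data known. Alternatives changed the expected value, the scaling, the balancing, the averaging and the compared map. Python 3.11.15, numpy 2.4.6 and scipy 1.17.1 were used.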

Additional observations from a re-analysis of the deposited data

How the results depend on the processing

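With 1 map per group and several comparisons resting on 1 wild type limb map, nothing here measures variation between samples, and depth limits single pairs more than tiles. No paired analysis was possible because the samples were merged into 1 map per group before deposit. A change was counted as moved where it left the counting interval of the value in the report, for counts where it left 1.5-fold, and causes of the moves were not tested. The log2 ratio of the rectangle did not move in 22 of 75 recalculations, the count of lower tiles in 43 of 53, the count of higher tiles in 48 of 53, the ratio of the uppermost column in 13 of 31 and the ratios of rows in 35 of 75.

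The ratio of the rectangle turned in 5 recalculations, beside a change of sign in i4i5ZRS over i4i5 limb, whose interval in the report includes 0. With total scaling i4i5 over wild type limb became 0.0666, ZRSreg over wild type limb -0.0453 and ES cells over wild type limb -0.44. With summed signal over summed expected values ES cells over wild type limb became -0.16. With the median as the expected value i4i5ZRSreg over i4i5 limb became 0.0013. With total scaling the Lmbr1 promoter rows at 530 to 440 kb and 430 to 340 kb below turned to -0.0607 and -0.0589, and the 3 far rows of ES cells turned to -0.26, -0.10 and -0.28. The uppermost column turned in none of its recalculations, from -0.76 to -0.39 in i4i5, -0.69 to -0.54 in i4i5ZRS and -0.69 to -0.46 in i4i5ZRSreg over wild type limb, -0.62 to -0.43 in i4i5ZRS over wild type midbrain and -0.71 to -0.47 in i4i5ZRSreg over ZRSreg limb.

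With the median as the expected value the rectangle stood at -0.26, -0.25 and -0.26 for i4i5, i4i5ZRS and i4i5ZRSreg over wild type limb, -0.27 for i4i5ZRS over wild type midbrain, 0.0538 for ES cells over wild type limb, 0.0138 for i4i5ZRS over i4i5 limb and -0.27 for i4i5ZRSreg over ZRSreg limb, and midbrain over limb had 3 lower tiles. With expected values from pairs outside the rectangle these became -0.22, -0.23 and -0.25 for the limb CTCF alleles, -0.30 in midbrain, -0.0482 for the Lmbr1 promoter, -0.11 for midbrain over limb, 0.0513 for ES cells and -0.28 for i4i5ZRSreg over ZRSreg limb, with 8 lower tiles. With total scaling i4i5ZRS became -0.23, i4i5ZRSreg -0.0983, the Lmbr1 promoter -0.17, midbrain over limb -0.19, i4i5ZRS over i4i5 -0.29, i4i5ZRSreg over ZRSreg -0.0530 and i4i5ZRSreg over i4i5 -0.16. Lower tiles then numbered 2 in i4i5, 2 in the Lmbr1 promoter map, 10 in midbrain over limb, 26 in ES cells with 0 higher, 12 in i4i5ZRS over i4i5 and 1 in i4i5ZRSreg over i4i5. Without balancing, the Lmbr1 promoter had -0.0189 and i4i5ZRSreg over ZRSreg -0.21, ES cells had 11 higher tiles, and i4i5ZRS over i4i5 had 2 higher and 2 lower. With summed signal the limb CTCF alleles had -0.0652, -0.11 and -0.0949, midbrain i4i5ZRS -0.20, ZRSreg 0.0394, midbrain over limb -0.11, i4i5ZRS over i4i5 -0.0469 and i4i5ZRSreg over ZRSreg -0.13.

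Without the uppermost column the ratios were -0.0414, -0.0701 and -0.0835 for the limb CTCF alleles, -0.14 in midbrain, -0.0550 for the Lmbr1 promoter, -0.12 for midbrain over limb and -0.11 for i4i5ZRSreg over ZRSreg. Beside ZRSreg limb the limb CTCF alleles had -0.17, -0.19 and -0.20, and beside Lmbr1 promoter limb -0.12, -0.13 and -0.14, where i4i5 had 2 higher tiles. Chosen after seeing the data, ES cells stood at 0.0016 beside ZRSreg limb, with 1 higher tile, and at 0.0587 beside Lmbr1 promoter limb, and the i4i5ZRS maps gave -0.15 for midbrain over limb with 12 lower tiles.

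Each level of the rectangle moved with the expected value. With the median it was 0.967 in i4i5, 0.976 in i4i5ZRS, 0.968 in i4i5ZRSreg, 1.17 in ZRSreg and 1.12 in Lmbr1 promoter limb, 0.906 in i4i5ZRS and 1.09 in wild type midbrain, 1.20 in ES cells and 1.16 in wild type limb. In the same order it was 0.859, 0.850, 0.839, 1.02, 0.966, 0.751, 0.923, 1.03 and 0.998 with pairs outside the rectangle. Without balancing it was 0.948, 0.940, 0.930, 1.08, 1.04, 0.857, 0.997, 1.08 and 1.05, and with summed signal 0.793, 0.768, 0.777, 0.853, 0.817, 0.670, 0.768, 0.745 and 0.830.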
